A study of Cavia porcellus with 30 samples.

Results

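The comparison followed guinea pig renal proximal tubular epithelial cells that had been kept in 30 µM mercuric chloride, the low dose of the study, for 24 h or for 12 h. Members were chosen by the agent and time labels, and they were 10 of the 30 RNA-seq libraries of the series, 5 collected at 12 h and 5 at 24 h. The cells came from the kidney cortex of Hartley guinea pigs aged 6 to 8 weeks, after removal of glomeruli, were grown to a monolayer, replated, and kept for 48 h in the maintenance medium that served as vehicle before exposure began. All 10 libraries share the isolation method, the medium and the dose, and differ by label in exposure time. The 5 vehicle libraries of each time were used as reference lines, while the libraries of the 40 µM dose did not enter the comparison. Nothing in the labels says whether replicates came from separate animals or cultures, so the p-values measure the spread between these libraries, which may be technical.

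Proximal tubular cells line the first segment of the nephron and reabsorb most of the filtered solutes, and they take up mercuric ions more than other kidney cells do. Mercuric ions bind the thiol groups of proteins and of glutathione, and cells exposed to them are known to raise metal-binding proteins, antioxidant enzymes and chaperones within hours. A direct comparison of the later with the earlier time asks which transcripts were still moving between them, in either direction.

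The files name transcripts by Ensembl identifier and do not pair them with gene symbols, and the guinea pig gene table at hand holds none of these identifiers. The 2 largest rises and the 2 largest falls are therefore given by identifier only, all other transcripts are described by counts, ranges and medians, and no check of the labelled cell type against its markers was made.

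Library totals ranged from 22209989 to 35021210 estimated counts. Totals were 27130484 ± 4870625 (SD, n = 5) at 12 h and 29140548 ± 4951448 at 24 h, a difference smaller than the spread (exact permutation p = 0.532, two-sided). Over log2 CPM (counts scaled to a common library size with edgeR's TMM factors) of 16650 transcripts, pairs of replicates correlated with Pearson r from 0.954 to 0.970 when neither was replicate 5 of its group and from 0.935 to 0.951 when one was. The points of these correlations are transcripts of 1 pair of libraries, not replicates.

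Replicate 5 at 24 h, the library of title number 29, stood apart, and replicate 5 at 12 h, of title number 11, did so to a lesser degree. The median departure of a transcript from the median of the other 4 libraries of the group was 0.224 log2 units in the 24 h library and 0.155 in the 12 h library, against 0.0880 to 0.101 in the other 8. The departures followed transcript length. Among the 2031 transcripts of up to 1000 bases with a mean of at least 1 TPM (the length-corrected unit of the files), the median departure was 0.11 in the 24 h library and 0.06 in the 12 h library, while among the 3804 transcripts over 4000 bases it was -0.078 and -0.045. In the other 8 libraries these medians lay from -0.039 to 0.020 for the short and from -0.0066 to 0.027 for the long transcripts.

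**Figure D1:**
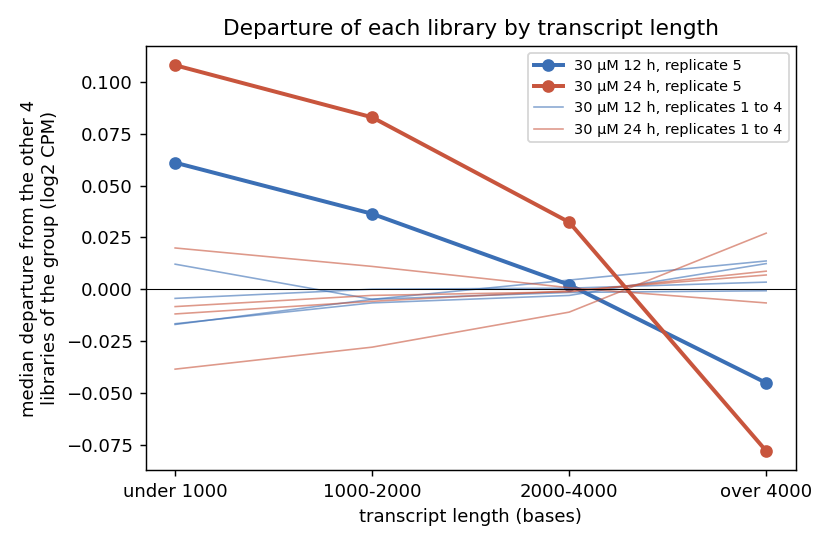
Median departure of each 30 µM library from the median of the other 4 libraries of its group (vertical axis, log2 CPM) by class of transcript length (horizontal axis, bases), with replicate 5 of each time as thick lines with points. Replicate 5 of 24 h runs from 0.11 in the shortest to -0.078 in the longest class, and the 8 thin lines stay between -0.039 and 0.027 in these classes.

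The mean transcript length weighted by counts was lowest in the same pair of libraries, with 3434 bases in the library of title number 29 and 3509 in that of title number 11, against 3627 to 3721 in the others. The mean fragment length, read from the difference between length and effective length, was 199 ± 7.64 bases (SD, n = 5) at 12 h and 209 ± 11.3 at 24 h (exact permutation p = 0.159, two-sided). It was 190 in the library of title number 29 and 208 to 217 in the other 4 of 24 h, and without this library the exact permutation p was 0.0317, unadjusted over the 8 library measures compared. The part of fragment length in the results below was not tested. Of 14728 transcripts with at least 1 TPM, 720 lay at least 2-fold below and 192 at least 2-fold above the other 24 h libraries in the library of title number 29, against 413 below and 131 above in that of title number 11, and 141 to 213 below and 113 to 180 above in the 8 others. Of those 912 transcripts, 75.9% departed in the same direction in the library of title number 11 as well. In the other 4 libraries of 12 h 35.0% to 50.3% did so. Departures in those 4 were taken from medians that include the library of title number 11. The share over all 14728 transcripts was not computed. Results are given below with and without the library of title number 29.

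Between 12 h and 24 h of exposure to 30 µM, 1503 of 16650 tested transcripts were called at an edgeR quasi-likelihood Benjamini-Hochberg adjusted p under 0.1, which is 9.03% of all. Of these, 718 (4.31%) rose and 785 (4.71%) fell. The changes were mostly small, with a median size of 0.25 log2 units and a middle range from 0.17 to 0.40. At least 1.5-fold changes made up 234 of the calls and at least 2-fold changes 93 (0.559% of all tested), 53 of them rises and 40 falls. At an unadjusted p under 0.05 there were 3026 transcripts.

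Without the library of title number 29 the count more than doubled. The test then called 3131 of 16871 transcripts (18.6%), with 1545 rises (9.16%), 1586 falls (9.4%) and a median change of 0.23 log2 units. The at least 2-fold calls became 136 (0.806%), with 63 rises and 73 falls, so the falls of that size rose in number from 40 to 73. The biological coefficient of variation was 21.3% with the library and 18.8% without it. Leaving out any other library gave from 1006 to 1231 calls. The calls without the library of title number 29 contained 1492 of the 1503 (99.3%), all 1492 in the same direction, and these made up 47.7% of the larger list. Of the 1639 transcripts called only without that library, 1626 were tested with it too, and 1625 of them had the same direction. Their median size over all 10 libraries was 0.15 log2 units, against 0.21 without it. Both fits share every library but that of title number 29, so agreement in direction between them is largely built in.

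**Figure D2:**
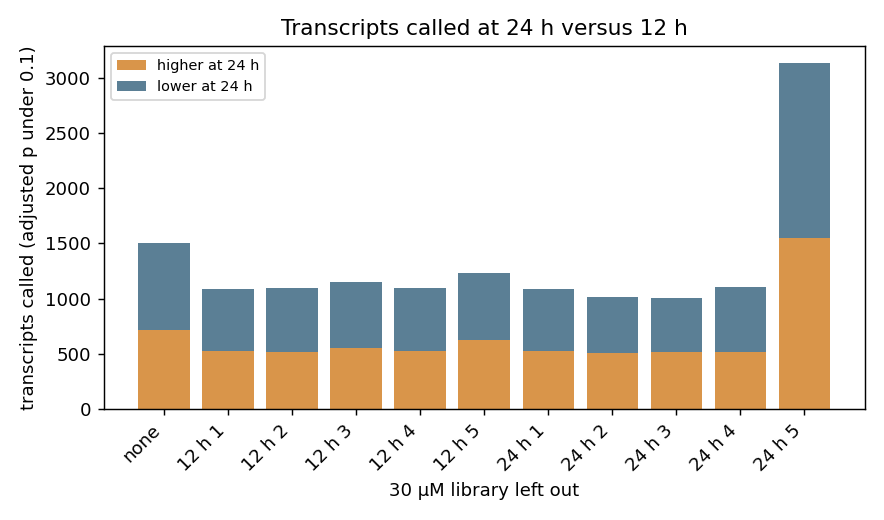
Number of transcripts called at 24 h versus 12 h (vertical axis, adjusted p under 0.1) with all 10 libraries and with each 30 µM library left out in turn (horizontal axis, time and replicate), split into rises and falls. The bars lie between 1006 and 1231 apart from 1503 with no library left out and 3131 without replicate 5 of 24 h.

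Each library could also be placed by transcripts that it had no part in choosing. For this, transcripts were called from 9 libraries, and the library left out was counted as on its own side where its log2 CPM lay on the side of its labelled time from the midpoint of the means of the 2 groups. All but 1 of the 10 libraries followed their labels in most transcripts, from 83.1% to 91.6% of those called, against 56.9% to 63.7% of all tested. The library of title number 29 lay on the 24 h side in 1318 of 3118 transcripts called without it (42.3%), close to its share over all tested transcripts (42.2%). It was on that side in 44.4% of the rises and 40.2% of the falls. On a scale where 0 is the 12 h mean and 1 the mean of the other 4 libraries of 24 h, its median position was 0.313, whereas the 9 others lay from 0.907 to 0.968 on the matching scale. Among transcripts with changes of at least 2-fold it followed its label more often, in 86 of 123 (69.9%), against 80.9% to 92.5% in the others. The library thus lay with the other 24 h libraries in most of the larger changes. In most of the smaller ones it lay nearer to the 12 h mean. These shares come from unlike sets, with 3131 transcripts called without this library and 1006 to 1231 without each other one. Those smaller sets were chosen with the library of title number 29 in the fit. The part of this in the gap was not tested.

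**Figure D3:**
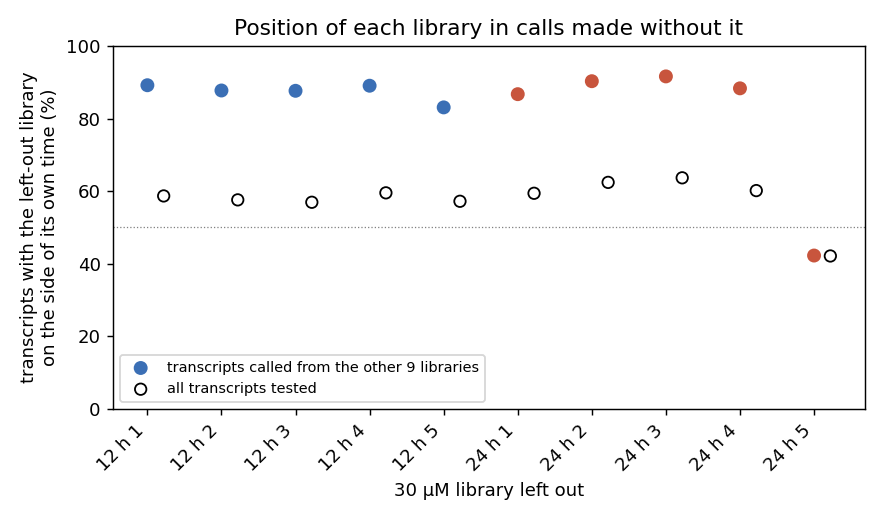
Share of transcripts in which a 30 µM library lay on the side of its own labelled time (vertical axis, percent), for transcripts called from the other 9 libraries (filled points, blue for 12 h and red for 24 h) and for all tested (open points), by the library left out (horizontal axis). Replicate 5 of 24 h sits at 42.3%, below the dotted line at 50%, and the other 9 at 83.1% to 91.6%.

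The vehicle means served to say where a transcript stood at each time. For each one, the mean log2 CPM of the vehicle libraries of the same time was subtracted from that of the 30 µM libraries. Over all 16650 tested transcripts the median size of this difference was 0.15 log2 units at 12 h and 0.14 at 24 h, and the vehicle means themselves differed between the times by a median of 0.080. Over the 1503 called transcripts the medians were 0.22 at 12 h and 0.18 at 24 h. Over the 93 called with at least 2-fold changes they went the other way, with 0.44 at 12 h and 1.20 at 24 h. Called transcripts were nearer to the vehicle line at 24 h in 923 cases (61.4%), beside 54.8% of all tested. Without the library of title number 29 the shares were 60.2% and 53.4%.

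The direction of a call largely fixes which positions it can take, since the vehicle line moved little, so the counts are given within each direction. Of the 785 falls, 469 were above vehicle at both times and nearer to it at 24 h, while 180 went from above to below it and 106 moved farther below it. Of the 718 rises, 244 went from below to above the vehicle line, 221 were above it and moved farther away, and 215 were below it and came nearer. These positions, both directions of call together, made up 16.6%, 15.8% and 14.9% of the calls, beside 14.3%, 14.9% and 19.8% of all tested transcripts. The group above vehicle at both times and nearer at 24 h made up 31.9% of the calls and 20.4% of all tested transcripts, with a median of 0.40 log2 units above vehicle at 12 h and 0.18 at 24 h. The group below vehicle at both times and farther at 24 h made up 8.45% of the calls and 16.7% of all tested. Without the library of title number 29 the first group made up 23.7% of the calls and 19.0% of all tested, and the second 9.24% and 15.7%. Transcripts that went from above to below the line made up 12.4% of the calls and 14.0% of all tested with that library, and 18.5% and 15.0% without it. These positions use the libraries that chose the calls and are given as a description.

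**Figure D4:**
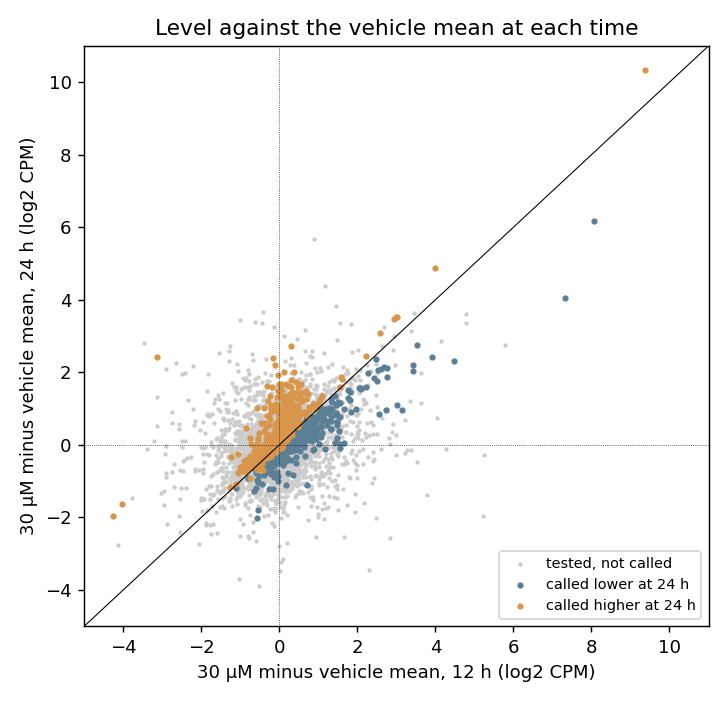
Mean log2 CPM of the 30 µM libraries minus the vehicle mean of the same time, at 12 h (horizontal axis) and 24 h (vertical axis), for each tested transcript, with the diagonal marking equal distance. Among calls of at least 2-fold the 53 rises stand at a median of -0.030 at 12 h and 1.33 at 24 h, and the 40 falls at 1.54 and 0.63.

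Among the largest changes, most rises ended above vehicle and most falls began above it. The median difference from vehicle of the 53 transcripts that rose at least 2-fold was -0.030 log2 units at 12 h and 1.33 at 24 h. At 12 h 25 of the 53 were above the vehicle line, 0 by 2-fold or more, and 5 were at least 2-fold below it. At 24 h 41 were at least 2-fold above it and 2 at least 2-fold below, and 9 of the 53 were nearer to it than at 12 h. All 53 rises and 38 of the 40 falls were also called without the library of title number 29. The CPM values of the 5 and the 5 libraries did not overlap in 48 of the rises and 33 of the falls. Such a separation was found in 1363 (8.19%) of all tested transcripts, 1163 of them called, so the call and the separation rest on the same values. The 40 transcripts that fell at least 2-fold were 1.54 log2 units above vehicle at 12 h and 0.63 at 24 h by their medians. Of these, 38 lay above the vehicle line at 12 h, 28 of them by at least 2-fold. At 24 h 12 were 2-fold above it and 4 at least 2-fold below. Compared with 12 h, 32 of the 40 were nearer to the line at 24 h. The falls rested on fewer reads, with a median of 51.8 counts per library against 130 for the rises, and 21 of the 40 and 45 of the 53 had a mean of at least 50 counts.

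A smaller set passed further filters. These filters use the same values as the sizes and positions below, which are given as a description. There were 1125 transcripts that were called with and without the library of title number 29, did not overlap between the times, and had a mean of at least 50 counts, 545 higher and 580 lower. The 25 largest rises among them ranged from 1.13 to 1.62 log2 units. At 12 h they lay between -0.58 and 0.46 log2 units of the vehicle line, with a median of 0.0026, and at 24 h between 0.99 and 2.40 above it, with 24 of the 25 at least 2-fold above. The vehicle line itself moved by a median of -0.18 log2 units between the times in these transcripts. The 25 largest falls ranged from 0.90 to 3.08 log2 units in size. At 12 h 18 of them were at least 2-fold above vehicle and 5 within 0.5 log2 units of it, with a median over the 25 of 1.97 and a range from -0.55 to 8.06. At 24 h 12 of the 25 were at least 2-fold above vehicle and 2 at least 2-fold below, with a median of 0.998 and a range from -1.79 to 6.18. The median length was 1932 bases for these falls and 2707 for these rises. Within these sets of 25 the falls were more abundant by length-corrected level, with a median of 16.4 TPM against 3.42. All had passed the minimum of 50 counts. Among all calls of at least 2-fold the falls had the lower median count, 51.8 against 130.

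ENSCPOT00000015523.3, a transcript of 3349 bases, had the largest rise among these. Replicates 1 to 5 of 12 h held 3.69, 5.63, 5.29, 4.48 and 2.53 CPM, and those of 24 h held 13.9, 13.0, 10.6, 13.7 and 15.4 CPM. Every library of 24 h was above every library of 12 h, and the library of title number 29 was the highest. The rise was 1.62 log2 units (SE 0.20, edgeR adjusted p = 0.000754), and it was 1.56 without that library. The vehicle line was at 4.30 ± 0.42 CPM (SD, n = 5) at 12 h and 3.43 ± 0.331 at 24 h, so the 12 h level of 4.33 ± 1.26 CPM was at vehicle and the 24 h level of 13.3 ± 1.75 CPM was above it. Its estimates were fractional, which marks reads shared with a similar transcript, and its level is uncertain to that extent.

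ENSCPOT00000027476.2, of 2430 bases and also with fractional estimates, was next. The 12 h replicates held 1.64, 1.99, 2.33, 1.55 and 1.63 CPM, and the 24 h replicates 5.05, 5.01, 4.62, 5.31 and 6.23 CPM. Again the groups did not overlap and the library of title number 29 was the highest. The rise was 1.52 log2 units (SE 0.15, edgeR adjusted p = 0.000220), or 1.45 without that library. In vehicle it was at 1.98 ± 0.304 CPM (SD, n = 5) at 12 h and 1.15 ± 0.526 at 24 h. The vehicle mean was thus lower at 24 h while the 30 µM mean was higher. Vehicle libraries overlapped between the times, with 1.89 CPM in replicate 4 of 24 h and 1.65 in replicate 2 of 12 h. The vehicle difference was not tested.

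ENSCPOT00000040932.1, of 1932 bases and with whole estimates, had the largest fall. Replicates 1 to 5 of 12 h held 174, 102, 104, 86.7 and 165 CPM, and those of 24 h held 22.8, 15.99, 11.3, 19.1 and 4.14 CPM. All 12 h libraries were above all 24 h libraries, and the library of title number 29 was the lowest of the 10, so the mean of 14.7 ± 7.24 CPM (SD, n = 5) at 24 h was 17.3 without it. The fall was -3.08 log2 units (SE 0.37, edgeR adjusted p = 0.000748) with it and -2.84 (SE 0.27) without it. The vehicle lines were at 0.737 ± 0.340 and 0.725 ± 0.232 CPM, with 8 to 34 counts in each vehicle library, so the 30 µM level stayed above vehicle in the 24 h libraries after the fall.

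ENSCPOT00000044307.1, of 678 bases and with whole estimates, fell more evenly. The 12 h replicates held 166, 161, 128, 120 and 129 CPM, and the 24 h replicates 27.2, 30.7, 26.8, 24.7 and 29.4 CPM. The groups were far apart, and both libraries numbered 5 lay inside the range of their groups. The fall was -2.34 log2 units (SE 0.10, edgeR adjusted p = 1.13e-06), a 5.06-fold lower level, and -2.36 without the library of title number 29. The vehicle lines were at 0.525 ± 0.379 and 0.318 ± 0.0827 CPM (SD, n = 5). In length-corrected units this transcript was at 437 TPM at 12 h and 87.1 TPM at 24 h by the means of the groups, and ENSCPOT00000040932.1 at 108 and 12.8 TPM, so the former was the more abundant at each time.

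**Figure D5:**
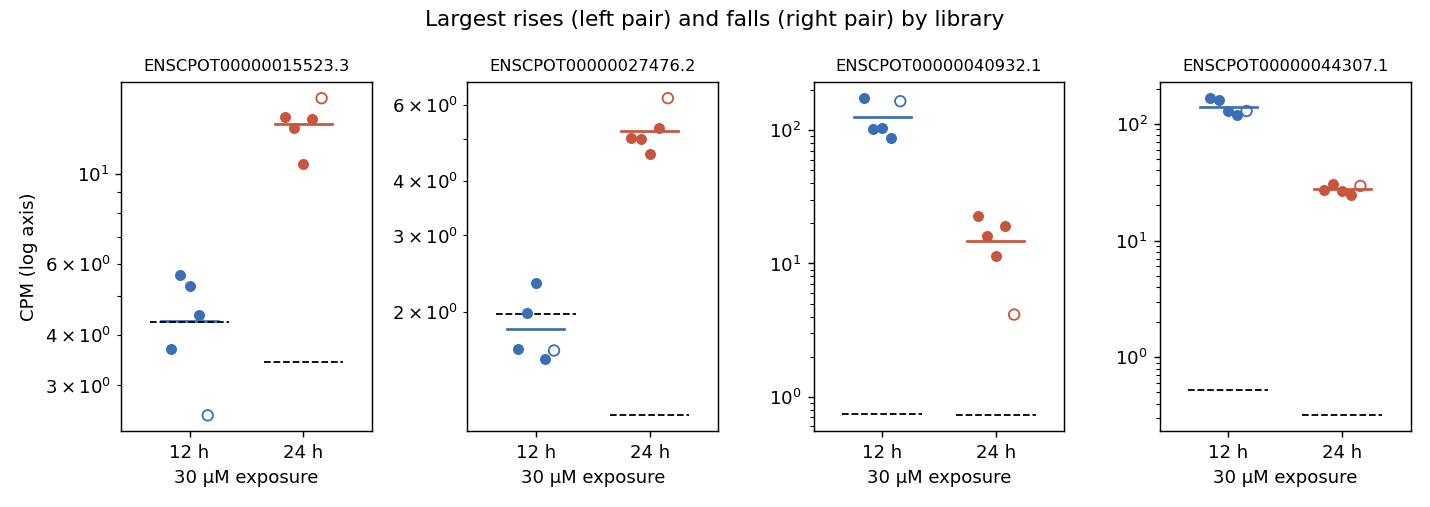
Level of the 4 transcripts with the largest rises and falls (vertical axis, CPM on a log scale) in each 30 µM library at 12 h and 24 h, with replicate 5 as open circles, group means as coloured lines and vehicle means as dashed black lines. Both rises start at the vehicle line and end at 13.3 and 5.24 CPM, and both falls end at 14.7 and 27.8 CPM, above vehicle.

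Transcripts that stood far from vehicle at one time were then followed to the other. Choosing by the level at one time favours large differences at that time, so both directions are given. Of 233 transcripts with a mean of at least 50 counts that were at least 2-fold above vehicle at 12 h, with a median of 1.47 log2 units, 116 were still 2-fold above at 24 h, where the median was 0.999. Between the times 71 of the 233 fell by the test and 12 rose, beside 755 falls and 703 rises among all 14149 transcripts with that count minimum. Of 275 transcripts at least 2-fold above vehicle at 24 h, with a median of 1.43, the median at 12 h had been 0.69, and 86 of them rose and 33 fell. Without the library of title number 29 the 233 transcripts held 82 falls and 16 rises, and the 275 held 93 rises and 39 falls, beside 1510 rises and 1524 falls among all 14149.

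On the low side, of 124 transcripts at least 2-fold below vehicle at 12 h, with a median of -1.42 log2 units, 44 were so at 24 h, and 5 rose and 1 fell between the times. These counts were 32, 12 and 1 without the library of title number 29. They stand beside the 703 rises and 755 falls among all 14149 transcripts with that library, and the 1510 and 1524 without it. Their median at 24 h was -0.73 with the library of title number 29 and -0.33 without it. Of 137 transcripts at least 2-fold below vehicle at 24 h, 83 remained so when this library was left out, and their median was -1.33 with it and -1.15 without it. The median of the 137 at 12 h had been -0.55, and 44 of them were at least 2-fold below vehicle then. Between the times 3 of the 137 rose and 8 fell, and without that library 7 rose and 10 fell.

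The share of transcripts called grew with abundance. It was 2.13% of 1922 transcripts up to 1 TPM, 6.32% of 6239 from 1 to 10 TPM, 11.4% of 7204 from 10 to 100 TPM and 19.1% of 1285 over 100 TPM. In the same order of classes these shares were 4.01%, 12.4%, 23.8% and 43.4% without the library of title number 29. The median size of a called change went the other way, from 1.09 log2 units in the lowest class to 0.45, 0.21 and 0.19 in the highest. The part of read depth in both trends was not tested. In the class over 100 TPM 114 transcripts rose and 132 fell. Without the library of title number 29 there were 187 rises and 371 falls in that class, and 476 rises and 296 falls in the class from 1 to 10 TPM in place of 219 and 175.

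By length, 4.83% of 2049 transcripts up to 1000 bases were called, 7.37% of 4164 from 1000 to 2000 bases, 10.7% of 5865 from 2000 to 4000 bases and 10.3% of 4572 over 4000 bases. The shares by length were 13.7%, 16.8%, 20.5% and 20.4% without the library of title number 29. The direction of these calls depended on the library of title number 29. With it 57 short transcripts rose and 42 fell, and without it 106 rose and 175 fell. Over 4000 bases 198 rose and 271 fell with it, and 515 rose and 416 fell without it. This is the length class in which that library lay below the others of its group. Of 6552 tested transcripts with whole estimates in all 10 libraries, 742 (11.3%) were called, and of 10098 with fractional estimates 761 (7.54%). These shares were 22.3% and 16.4% without the library of title number 29.

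A count of 1 or more was found for 19089 ± 179 transcripts (SD, n = 5) in the 12 h libraries and 19057 ± 371 in the 24 h libraries. The difference of -32.2 was within the spread (exact permutation p = 0.889, two-sided, adjusted p = 0.889 over 2 comparisons), and it was 98.0 without the library of title number 29, which had the fewest, 18536. With each library thinned to the smallest total it was -83.0, and 22.8 without that library. No transcript had at least 10 counts in each library of one time and at most 3 in each library of the other. The 10 most abundant transcripts took 9.78% ± 0.288 of the counts at 12 h and 10.2% ± 0.280 at 24 h, a difference of 0.394 percentage points (exact permutation p = 0.0476, adjusted p = 0.0952). The unadjusted p was 0.05 or more in 9 of the 10 cases with 1 library left out. The exception was without title number 29, with a difference of 0.500 (exact permutation p = 0.0159, unadjusted). The 50 most abundant took 22.3% ± 0.260 and 23.1% ± 0.122. There all 24 h libraries were above all 12 h libraries (exact permutation p = 0.00794, unadjusted, the smallest that 5 against 5 allow). Without title number 29 this difference was 0.813 percentage points (exact permutation p = 0.0159, unadjusted).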

How the data were processed

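For each library the authors deposited a table from kallisto (version 0.42.4 per the submitters' processing notes), which pseudo-aligns reads to the Ensembl transcriptome of the guinea pig (release not given in the sources used here). Each deposited table holds an estimated count and a TPM value for 25824 transcripts, with length and effective length. Estimated counts are not normalised, and reads that match several transcripts are shared among them. Libraries were poly-A-enriched.

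After rounding, estimated counts went into edgeR 4.0.16 (R 4.3.3), with its quasi-likelihood test for every transcript (TMM factors, filterByExpr, 10 libraries), adjusted over all transcripts tested, threshold 0.1 as in the study. Standard errors were taken as the size of the log2 fold change divided by the root of the F statistic. CPM used TMM factors over the 30 µM and vehicle libraries, with a prior count of 2 on the log2 scale. Single values were compared with exact permutation tests (scipy 1.17.1). The study's Sleuth test was not used. Scripts were tested on simulated counts.

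Transcripts printed are the 2 largest rises and 2 largest falls among calls made with and without the library of title number 29, with no CPM overlap and a mean of at least 50 counts. The members and rules were chosen with earlier results of these data known. Alternatives were RLE factors, DESeq2 1.42.0, no filter, an adjusted p under 0.05, all 30 libraries, limma 3.58.1 on log2(TPM + 1) and log2(TPM + 0.1), a block on title-number position, whole estimates, and each library left out. Removal of both libraries numbered 5 and voom with quality weights were chosen after seeing the data, as were the placing of left-out libraries, the length classes and the sets of 25. Planned gene lists and cell type markers were not analysed here, as no identifier of the gene table (assembly mCavPor4.1) matched.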

Additional observations from a re-analysis of the deposited data

Results flagged for a closer look

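Libraries were set beside the others of their group in 20 sets of 5 values, where chance alone marks about 1 in 20, and 4 stood out by the gap to the nearest library. In replicate 5 of 30 µM at 12 h the 10 most abundant transcripts took 9.28% of the counts, against 9.84% to 9.98% in the other 4. The mean transcript length weighted by counts was 3509 bases in the same library, against 3627 to 3658. Its median departure from the other libraries was 0.155 log2 units, against 0.0887 to 0.0994. In replicate 5 at 24 h, of title number 29, that departure was 0.224, against 0.0880 to 0.101.

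The 40 µM libraries, which the comparison did not use, were also examined for the 4 printed transcripts, and in the cases below every one of them lay above every vehicle library of the same time. ENSCPOT00000040932.1 had a mean of 535 CPM at 12 h and 29.1 CPM at 24 h there, and ENSCPOT00000044307.1 had 991 and 137 CPM. At 24 h ENSCPOT00000015523.3 had 13.9 CPM and ENSCPOT00000027476.2 had 7.07 CPM.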

How the results depend on the processing

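In place of 1503 calls there were 993 when only the 6552 transcripts with whole estimates were tested (737 of them among the 1503), 981 at an adjusted p under 0.05, 3244 with voom quality weights and 3230 without both libraries numbered 5. Leaving out 1 library gave 1006 to 3131 calls, 85 to 136 at least 2-fold and 47.0% to 50.9% higher, the top of the first 2 ranges without replicate 5 of 24 h. The 93 calls of at least 2-fold were 33 on log2(TPM + 1), 35 there with no filter and 183 with quality weights. The share of calls higher at 24 h, 47.8%, was 50.6% with RLE factors, 41.9% on log2(TPM + 1), 42.0% on log2(TPM + 0.1), 40.0% on log2(TPM + 1) with no filter and 50.5% without both libraries numbered 5, and the cause was not tested. DESeq2 called 1986. Without title number 29 the count of 3131 was 2035 for whole estimates and 2037 at an adjusted p under 0.05.

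The block on title-number position gave 2203 calls, and 2460 without title number 29. Deviations of the 5 same-position pairs correlated from -0.046 to 0.24, highest between both libraries numbered 5, and 2 of 5 libraries of 24 h matched their own position best, so the numbers were not taken to pair the samples. The share of calls nearer to vehicle at 24 h was 60.2% without replicate 5 of 24 h.

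The difference in transcripts with a count, -32.2, was 3.00 at 5 or more counts, -83.0 with libraries thinned to the smallest total, and -126 to 98.0 with 1 library left out, including 31.3 without replicate 3 of 12 h and 11.3 and 98.0 without replicates 3 and 5 of 24 h. The difference in the share of the 10 most abundant transcripts was 0.269 to 0.500 with 1 library left out, with an exact permutation p of 0.05 or more in 9 of 10 cases and 0.0159 without title number 29. The 4 printed transcripts kept direction and call in all 86 alternative values. What depth limits in each abundance class was not tested.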
